A study of Arabidopsis thaliana with 12 samples.

Results

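Among the genes of Arabidopsis thaliana that the probe annotation lists by a locus code alone, 72 were displaced in opposite directions by arsenate and by low oxygen in the root. They were chosen from the group means of the log2 signal. A gene was taken when arsenic lay at least 0.7 above the control mean with hypoxia at least 0.7 below it, or the reverse. Of the 14745 locus-coded genes, 25 were higher with arsenic and lower with hypoxia, and 47 were lower with arsenic and higher with hypoxia. The array table held 16550 genes in all, including 1805 with a symbol. Neither the probe annotation nor the gene table gives these 72 genes a symbol or a description, so no function is assigned to them here, and all are listed as protein coding. A bare locus code does not mean that a gene has no published name. The low-oxygen marker genes HRA1 (AT3G10040) and LDH1 (AT4G17260) were listed by locus code too.

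Arsenate resembles phosphate and enters roots through phosphate transporters. Inside the cell it is reduced to arsenite, which binds thiol groups and is held by glutathione and phytochelatins. Low oxygen limits respiration, stabilises ethylene response factor transcription factors and switches on fermentation. A gene pushed up by one stress and down by the other allows a question that a shared response does not, namely which of the stresses its level follows when both are present.

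Total RNA of Col-0 (wild-type) roots was measured on 12 arrays, 3 independent biological replicates for each of 4 groups. Plants grew in hydroponic culture for 32 days, were then treated for 7 days and were 39 days old at harvest. The combination group received 250 µM arsenate (supplied as Na2HAsO4) in hypoxic nutrient medium. The arsenic group received the same arsenate dose without the hypoxic medium, the hypoxia group the hypoxic medium without arsenate, and the control group neither. The oxygen content of the medium is not given in the sources used here. Whole roots were profiled, so fewer cells of a type and less RNA per cell cannot be told apart in any value below.

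The array medians ran from 4.72 to 4.99 on the log2 scale. Of 11 root marker genes 6 were measured, namely EXPA7, EXPA18, XTH26, BGLU21, AT4G30170 and AT1G30870. Their summed signal was 7.98 to 8.75 in the combination, 10.93 to 11.03 with arsenic, 8.53 to 10.14 with hypoxia and 12.31 to 12.39 in the control, on the log2 scale. Signals were summed before the log, so the strongest genes weigh most, such as BGLU21 (11.53 in the control, 5.73 in the combination). Each of the 6 averaged below its control mean in every stress. Only 2 of 8 green tissue markers were measured, with sums of 5.49 to 6.30 in the combination, 5.50 to 5.74 with arsenic, 6.07 to 6.20 with hypoxia and 5.54 to 5.86 in the control. The part of a changed root make-up in the results was not tested. Of 10 hypoxia markers 8 were measured, with log2 sums of 13.20 to 13.25 in the combination, 9.93 to 10.16 with arsenic, 13.19 to 13.53 with hypoxia and 9.73 to 9.85 in the control. Among them PDC2, a pyruvate decarboxylase of the fermentation pathway, averaged 6.94 in the combination, 4.89 with arsenic, 7.02 with hypoxia and 4.82 in the control. The hypoxia arrays were less even in HRA1, from 5.32 to 8.88. Of 4 arsenate markers 3 were measured. GSTU25, a glutathione S-transferase, averaged 3.73 in the combination, 7.59 with arsenic, 3.96 with hypoxia and 3.32 in the control. AT2G21640 averaged 8.17 in the combination, 9.37 with arsenic, 6.55 with hypoxia and 4.16 in the control. AT2G21045 averaged 9.29 in the combination, 9.55 with arsenic, 10.47 with hypoxia and 10.29 in the control. Across genes, hypoxia array 1 correlated more closely with combination array 1 (0.982) than with hypoxia arrays 2 and 3 (0.973 and 0.972). Hypoxia array 3 correlated with combination array 3 at 0.974, between its values with hypoxia arrays 1 and 2 (0.972 and 0.980). For AT2G21640 hypoxia array 1 lay with its own group, since combination arrays read 7.92 to 8.46 and hypoxia arrays 6.33 to 6.90. Counts on the place of the combination and on its calls are given with and without hypoxia array 1 and combination array 1. Hypoxia array 3 and combination array 3 were left out only 1 at a time.

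Opposite displacement was uncommon beside shared displacement. Over all genes, 387 were at least 0.7 above control under both single stresses and 777 at least 0.7 below, against 85 that were opposite, the 72 locus-coded genes and 13 genes with a symbol. Both differences were taken from the same control arrays, so an error in a control mean shifts both the same way. How far this affected the counts was not tested. Because these differences chose the genes, they are described without a test. In the 25 genes higher with arsenic, the arsenic difference from control had a median of 1.01 and reached 2.86, and the hypoxia difference had a median of -1.06 and reached -1.78. In the 47 genes lower with arsenic, the arsenic difference had a median of -1.10 and reached -4.31, and the hypoxia difference had a median of 1.05 and reached 2.84. The arsenic arrays lay wholly apart from the control arrays in 69 of the 72 genes (39.1% of all genes), the hypoxia arrays in 57 (40.3% of all genes), and both did in 57 (21.1% of all genes). Since the choice used these contrasts, nothing is read from those shares.

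**Figure D1:**
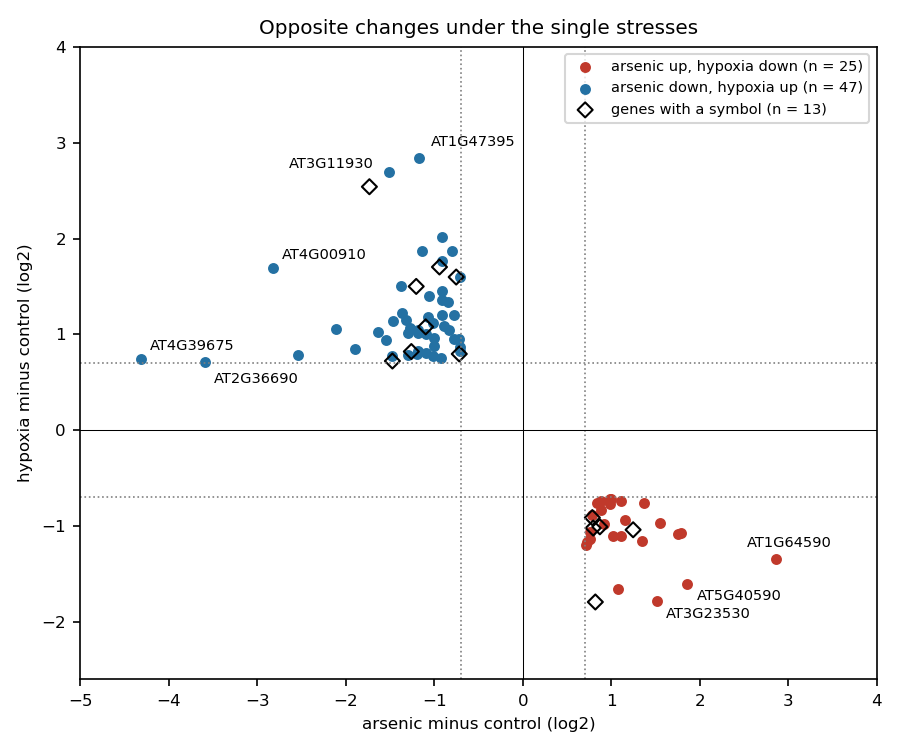
Arsenic minus control (horizontal axis) and hypoxia minus control (vertical axis), both in log2 units, for the 25 genes higher with arsenic (red), the 47 genes lower with arsenic (blue) and the 13 genes with a symbol that meet the same limits (diamonds); dotted lines mark 0.7 and -0.7. Most genes sit near the limits, while AT4G39675, AT2G36690 and AT4G00910 reach far to the left with arsenic and AT1G47395 and AT3G11930 high with hypoxia.

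The single stresses did not contribute alike on every array. Hypoxia array 1 lay at least 0.7 from the control mean on the hypoxia side in 42 of the 72 genes, whereas hypoxia arrays 2 and 3 each did so in 60. On the opposite side of the control mean, by any distance, lay array 1 in 6 genes, array 2 in 0 and array 3 in 2. The arsenic arrays passed the same distance in 63, 57 and 68 genes. The hypoxia arm of the choice therefore drew more on arrays 2 and 3 than on array 1.

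Among the genes higher with arsenic, AT1G64590 had the largest arsenic displacement. It read 9.29, 10.53 and 10.06 in the combination, 10.92, 11.29 and 11.19 with arsenic, 5.44, 6.79 and 8.54 with hypoxia and 8.34, 8.23 and 8.25 in the control. Its arsenic and combination arrays all lay above every control array, but hypoxia array 3 lay above the control arrays too. AT5G40590 read 5.72, 5.23 and 5.68 in the combination, 8.39, 8.18 and 8.61 with arsenic, 5.36, 5.20 and 4.25 with hypoxia and 7.06, 6.35 and 6.21 in the control. Here the combination arrays overlapped the hypoxia arrays and lay below all control arrays. AT3G23530 read 4.38, 5.57 and 5.44 in the combination, 7.96, 8.21 and 8.14 with arsenic, 5.36, 4.69 and 4.37 with hypoxia and 6.48, 6.67 and 6.61 in the control. Again the combination and hypoxia arrays shared a range, with the control arrays between them and the arsenic arrays.

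A second kind of gene in this direction sat close to control when both stresses were applied. AT4G16190 read 9.79, 10.52 and 10.71 in the combination, 11.85, 11.62 and 11.99 with arsenic, 9.04, 9.79 and 9.10 with hypoxia and 10.54, 10.47 and 10.40 in the control. AT2G29070 read 5.85, 6.76 and 7.01 in the combination, 7.40, 7.67 and 7.75 with arsenic, 5.53, 5.41 and 5.23 with hypoxia and 6.67, 6.54 and 6.26 in the control. In both, the combination arrays straddled the control arrays, and combination array 1 was the lowest of the 3. AT1G28815 read 5.37, 5.44 and 4.79 in the combination, 5.56, 6.38 and 6.61 with arsenic, 3.98, 4.03 and 4.18 with hypoxia and 5.18, 5.00 and 5.32 in the control, and its combination and control arrays overlapped. AT2G07721 lay on the arsenic side instead, at 8.67 ± 0.52 in the combination, 9.59 ± 0.29 with arsenic, 6.75 ± 0.24 with hypoxia and 7.84 ± 0.09 in the control (SD, n = 3 each). AT4G03292 did as well, at 6.44 ± 0.55 in the combination, 7.57 ± 0.02 with arsenic, 4.71 ± 0.55 with hypoxia and 5.78 ± 0.20 in the control (SD, n = 3 each). AT4G33540 lay on the hypoxia side, at 6.28 ± 0.43 in the combination, 8.19 ± 0.32 with arsenic, 5.67 ± 0.17 with hypoxia and 6.64 ± 0.16 in the control (SD, n = 3 each).

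Among the genes lower with arsenic, the widest arsenic displacement was that of AT4G39675. It read 9.32, 9.59 and 9.34 in the combination, 4.62, 6.58 and 5.23 with arsenic, 10.15, 11.05 and 10.39 with hypoxia and 9.65, 9.92 and 9.80 in the control. The combination arrays lay just below the control arrays, and the arsenic arrays lay far below all others, with a mean 19.9-fold under the control mean. AT4G00910 read 5.60, 4.39 and 6.66 in the combination, 5.83, 3.85 and 5.24 with arsenic, 10.003, 8.43 and 10.03 with hypoxia and 7.86, 7.68 and 7.83 in the control. In this gene the combination arrays overlapped the arsenic arrays and lay below every control array. AT3G11930 read 10.20, 9.79 and 9.88 in the combination, 6.60, 6.53 and 6.52 with arsenic, 10.72, 10.72 and 10.81 with hypoxia and 8.08, 8.19 and 7.92 in the control. No groups overlapped in AT3G11930, and the combination stood well above control.

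AT1G47395 had the highest hypoxia displacement, with 4.71, 6.04 and 6.04 in the combination, 3.35, 2.53 and 2.27 with arsenic, 5.52, 7.44 and 7.24 with hypoxia and 4.31, 3.44 and 3.94 in the control. Array 1 was the lowest of the combination and of the hypoxia arrays, and both groups still lay above all control arrays. AT1G20070 read 8.07, 7.79 and 7.62 in the combination, 5.36, 5.81 and 5.66 with arsenic, 8.44, 8.31 and 8.71 with hypoxia and 6.76, 7.20 and 6.98 in the control. Its groups kept the order arsenic, control, combination and hypoxia without overlap. AT1G63570 had that order as well, at 9.94 ± 0.43 in the combination, 8.14 ± 0.36 with arsenic, 11.14 ± 0.41 with hypoxia and 9.28 ± 0.23 in the control (SD, n = 3 each). In AT1G30720, AT4G08380 and AT1G51620 the combination arrays overlapped the control arrays, with combination minus control at 0.18, 0.07 and -0.19.

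AT5G42200 shows the spread of the hypoxia arrays. It read 6.21, 6.83 and 7.74 in the combination, 4.85, 5.38 and 5.55 with arsenic, 5.84, 7.91 and 8.79 with hypoxia and 6.12, 6.45 and 6.43 in the control. Hypoxia array 1 lay below all control arrays while arrays 2 and 3 lay above them. AT1G07135 read 7.04, 6.52 and 5.74 in the combination, 5.60, 4.79 and 4.90 with arsenic, 8.26, 7.54 and 6.41 with hypoxia and 6.91, 5.65 and 4.86 in the control. Its control arrays spread widely and overlapped both the arsenic and the hypoxia arrays. Array 1 was the highest of every group, and at each replicate number hypoxia lay above control.

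**Figure D2:**
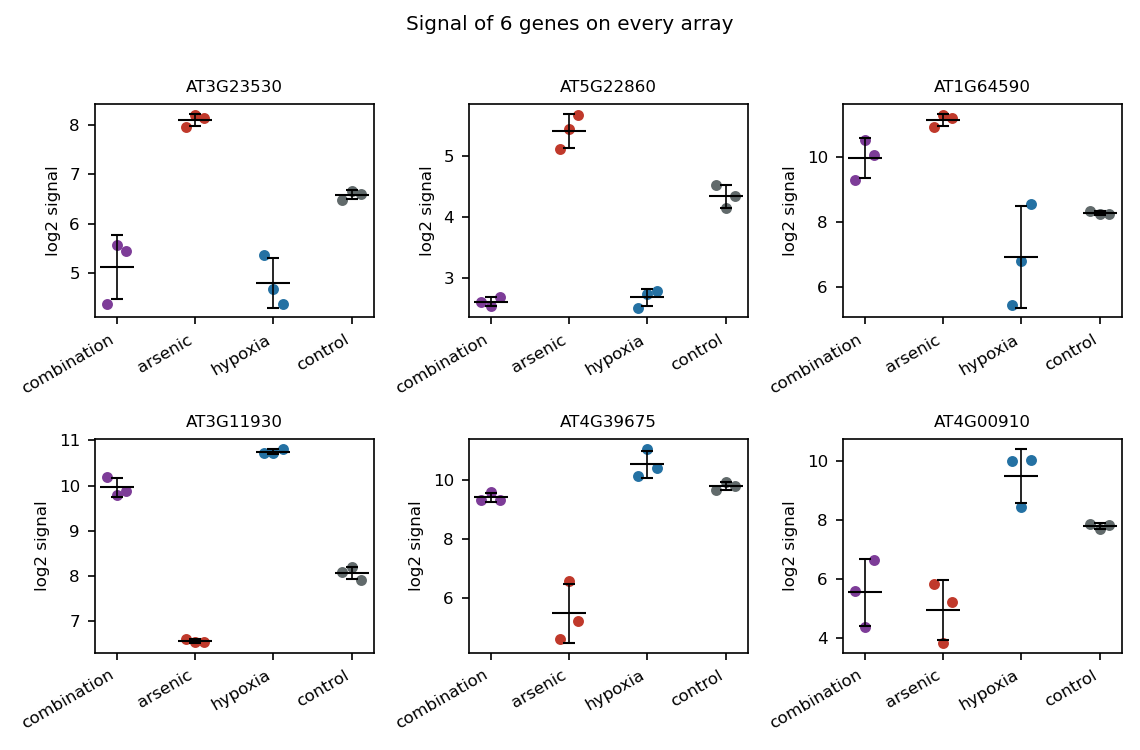
Log2 signal on every array for 6 of the genes, with the combination, arsenic, hypoxia and control groups from left to right; points are arrays, long bars the mean and whiskers the SD of 3 arrays. The combination lies with hypoxia in AT3G23530 and AT5G22860, with arsenic in AT4G00910, and near control in AT4G39675.

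The combination arrays took no part in the choice of the genes, so where they fell is a measurement of its own, although the arsenic, hypoxia and control arrays they are set against did take part. The place of the combination is given as the share of the way from the arsenic mean (0%) to the hypoxia mean (100%). It had a median of 58.9% over the 72 genes, with quartiles of 36.8% and 72.5%. The combination mean lay between the single-stress means in 68 genes. It went past the hypoxia mean in AT1G25530 (119.8%) and AT5G22860 (102.5%), and past the arsenic mean in AT5G47550 (-5.2%) and AT2G19970 (-2.8%). Over all 16550 genes, many with single-stress means close together, it went past the hypoxia mean in 5011 and past the arsenic mean in 3905. In AT5G22860 the combination and hypoxia means, and in AT5G47550 the combination and arsenic means, lay below the lowest first quartile of an array (3.06), so the order of those means is not resolved. The combination mean was nearer hypoxia in 45 of the 72 genes and nearer arsenic in 27, or 62.5% nearer hypoxia against 54.4% of all genes. Among the 563 other genes whose arsenic and hypoxia means were at least 1.4 apart, 73.7% were nearer hypoxia and the median share was 75.9%. The difference between those sets was not tested.

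Both directions had similar places. Of the genes higher with arsenic, 14 of 25 lay nearer hypoxia, with a median of 58.2%. Of the genes lower with arsenic, 31 of 47 did, with a median of 60%. All 3 combination arrays were on the hypoxia side of the midpoint in 29 of the 72 genes, all 3 on the arsenic side in 13, and the arrays were split in 30. Over all 16550 genes those counts were 4378, 3070 and 9102. The arrays differed in this, with 55, 42 and 35 of the 72 genes on the hypoxia side in combination arrays 1, 2 and 3 and median shares of 68.9%, 56.4% and 48.8%. Array 1, which leaned most to hypoxia, is the one that correlated most closely with hypoxia array 1. Without those 2 arrays, 39 of the 72 genes lay nearer hypoxia (14 of 25 and 25 of 47 by direction), 69 lay between the single means and the median share was 51.5%. Both remaining combination arrays were then on the hypoxia side in 31 genes, both on the arsenic side in 27, and 14 were split. Choosing genes anew without those arrays gave 94, of which 47 were nearer hypoxia, with a median share of 50.1%.

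**Figure D3:**
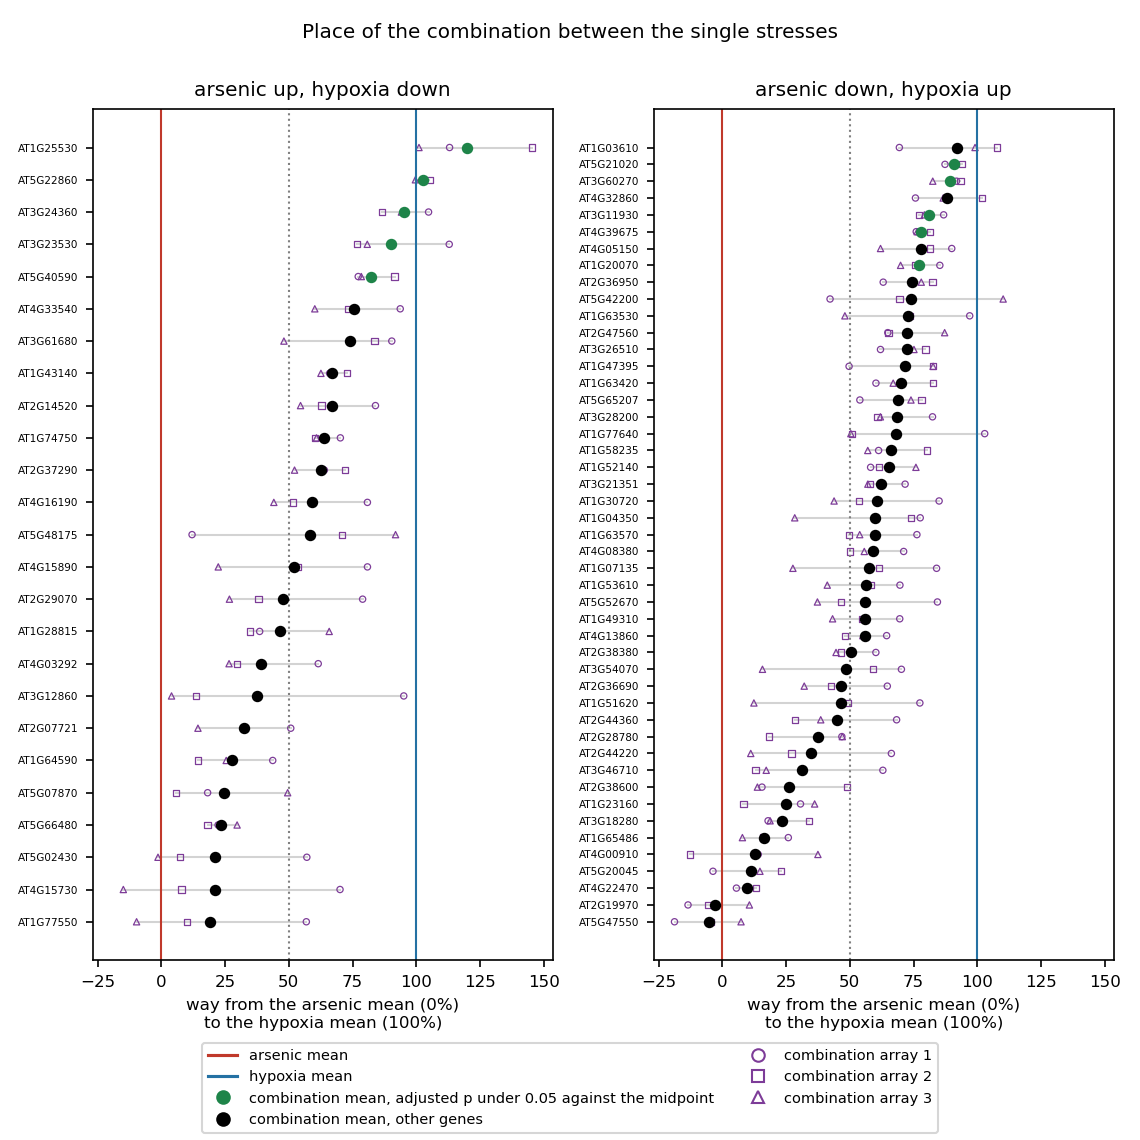
Place of the combination on the way from the arsenic mean (0%, red line) to the hypoxia mean (100%, blue line) for each gene, with open symbols for the 3 combination arrays, filled circles for their mean and a dotted line at the midpoint. The 10 green means, which differed from the midpoint at an adjusted p under 0.05, all lie on the hypoxia side, and circles for array 1 are often the rightmost.

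Against the midpoint of the single stresses, the combination differed in 10 of the 72 genes (13.9%, against 3.95% of all genes), at an adjusted p under 0.05 over all genes. In all 10 it lay towards hypoxia and in 0 towards arsenic. Of the 563 other genes with arsenic and hypoxia means at least 1.4 apart, 161 passed (28.6%), 153 towards hypoxia and 8 towards arsenic. The calls are relative to the midpoint and not to control. In AT4G39675, which passed towards hypoxia, combination minus control was -0.37, on the arsenic side of control. At an unadjusted p under 0.05 in the same limma fit, 16 of the 72 genes lay towards hypoxia (22.2%, against 12.2% of all genes) and 12 towards arsenic (16.7%, against 5.91% of all genes). At the midpoint test the other 62 genes did not pass in either direction, which does not show that they sat at the midpoint. The 10 consisted of 5 genes from each direction. Among the 72, the absence of calls towards arsenic depended on single arrays, as 6 genes passed towards arsenic and 11 towards hypoxia without hypoxia array 1, 4 and 8 without combination array 1, and 10 and 8 without both. Those settings called 5.84%, 3.2% and 4.89% of all genes. Without combination array 2, 5 genes passed, all towards hypoxia, along with 1.27% of all genes.

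In the genes lower with arsenic, AT3G11930 was the clearest, 1.30 above its midpoint (SE 0.12, adjusted p = 0.000135), and its combination remained 0.80 below hypoxia (SE 0.14, adjusted p = 0.0112). AT3G60270 read 9.94, 9.99 and 9.70 in the combination, 7.09, 7.86 and 7.50 with arsenic, 9.71, 10.45 and 10.33 with hypoxia and 8.35, 8.47 and 8.37 in the control. Its combination overlapped hypoxia and was 1.05 above the midpoint (SE 0.19, adjusted p = 0.00797). AT5G21020 read 9.46, 9.59 and 9.54 in the combination, 7.51, 8.04 and 7.91 with arsenic, 9.42, 9.998 and 9.70 with hypoxia and 8.84, 8.79 and 8.84 in the control. Here too the combination lay inside the hypoxia range, 0.77 above the midpoint (SE 0.15, adjusted p = 0.0126). AT1G20070 was 0.78 above (SE 0.16, adjusted p = 0.0152) and AT4G39675 1.41 above (SE 0.33, adjusted p = 0.0315). AT1G03610 had the highest share of this direction, 92.1%, but did not pass, at 1.12 above the midpoint (adjusted p = 0.0717).

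In the genes higher with arsenic, AT5G22860 read 2.61, 2.54 and 2.69 in the combination, 5.12, 5.44 and 5.68 with arsenic, 2.51, 2.75 and 2.78 with hypoxia and 4.52, 4.15 and 4.34 in the control. The combination and hypoxia arrays overlapped at the bottom of the signal range, below the lowest first quartile of an array (3.06), and the combination was 1.44 below the midpoint (SE 0.14, adjusted p = 0.000238). AT1G25530 read 5.23, 4.62 and 5.46 in the combination, 7.48, 7.31 and 7.42 with arsenic, 5.30, 5.65 and 5.50 with hypoxia and 6.69, 6.77 and 6.60 in the control. Combination arrays 1 and 2 lay below every hypoxia array, and the combination was 1.34 below the midpoint (SE 0.17, adjusted p = 0.00106) and 0.38 below hypoxia, which did not pass (adjusted p = 0.311). AT3G24360 read 2.70, 3.04 and 2.90 in the combination, 4.72, 4.35 and 4.99 with arsenic, 2.63, 2.94 and 2.80 with hypoxia and 4.13, 3.87 and 3.88 in the control. It was 0.86 below the midpoint (SE 0.15, adjusted p = 0.00773), with combination and hypoxia again at the low end of the scale. AT3G23530 was 1.33 below (SE 0.26, adjusted p = 0.0114) and AT5G40590 1.12 below (SE 0.25, adjusted p = 0.0268).

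The 10 calls were not equally firm. AT3G11930, AT3G23530, AT5G22860, AT3G24360 and AT1G25530 passed in 21 of 21 alternative settings, including every omission of 1 array. Some settings, such as omitting a control array or averaging rows, could change the adjusted p but not the difference from the midpoint. In AT5G22860 and AT3G24360 the combination and hypoxia means lay below the lowest first quartile of an array (3.06). AT3G60270 and AT5G21020 passed in 20 and lost the call without combination array 2 (adjusted p = 0.0568 and 0.0788). AT1G20070 passed in 18, failing without combination array 1, without combination array 2, and without combination array 1 and hypoxia array 1 together (adjusted p up to 0.0712). AT4G39675 and AT5G40590 passed in 14 each. Both failed without any 1 of the combination arrays, without arsenic array 3, without 1 hypoxia array (array 3 for AT4G39675, array 2 for AT5G40590), without hypoxia array 1 and combination array 1, and with all rows fitted (adjusted p up to 0.155 and 0.162).

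None of the 72 genes passed towards arsenic, yet a group of those lower with arsenic had combination arrays that overlapped the arsenic arrays. These were picked after their values were seen. AT5G47550 read 2.27, 2.65 and 2.95 in the combination, 2.40, 2.88 and 3.00 with arsenic, 3.59, 5.99 and 6.47 with hypoxia and 4.16, 4.39 and 3.83 in the control. AT2G19970 read 4.48, 4.703 and 5.14 in the combination, 4.74, 5.35 and 4.47 with arsenic, 5.62, 8.42 and 8.74 with hypoxia and 6.85, 6.58 and 6.81 in the control. In both genes hypoxia array 1 lay below all control arrays while hypoxia arrays 2 and 3 lay well above them, so the opposite displacement rests on those 2 arrays.

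In AT4G22470 the combination and arsenic arrays again overlapped below the control arrays, with 3.52, 3.70 and 3.63 in the combination, 3.55, 3.29 and 3.35 with arsenic, 4.77, 6.35 and 6.01 with hypoxia and 5.15, 4.87 and 4.08 in the control. AT5G20045 read 4.02, 4.58 and 4.40 in the combination, 4.20, 4.07 and 4.02 with arsenic, 5.12, 6.35 and 7.09 with hypoxia and 5.25, 5.48 and 4.85 in the control. In AT4G22470 and AT5G20045 hypoxia array 1 fell inside the control range. The combination was below the midpoint by 1.43, 1.45, 0.93 and 0.81 in AT5G47550, AT2G19970, AT4G22470 and AT5G20045, with adjusted p of 0.119, 0.154, 0.114 and 0.2. Without hypoxia array 1 all 4 passed, with adjusted p of 0.000395, 0.000357, 0.00729 and 0.00899. Of the 13 genes with all combination arrays on the arsenic side, hypoxia array 1 lay at least 0.7 from control on the hypoxia side in 3, against 18 of the 29 genes with all combination arrays on the hypoxia side.

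AT4G00910 had hypoxia arrays that all stood above control. The combination lay 1.68 below its midpoint (SE 0.51, 95% interval -2.78 to -0.57, adjusted p = 0.0938), which passed with a replicate block (adjusted p = 0.00981), with array weights (adjusted p = 0.0218), without combination array 3 (adjusted p = 0.0418) and without arsenic array 2 (adjusted p = 0.0462). It lay 3.94 below hypoxia (SE 0.59, adjusted p = 0.00558), while it differed from arsenic by 0.58 (95% interval -0.69 to 1.86, adjusted p = 0.597). In the direction higher with arsenic, AT1G64590 had its combination below all arsenic arrays, 3.04 above hypoxia (SE 0.56, adjusted p = 0.0139) and 0.93 above the midpoint (adjusted p = 0.346). AT1G77550 had the lowest share of that direction, 19.1%, with 7.07, 7.85 and 8.18 in the combination, 7.92, 8.14 and 8.00 with arsenic, 6.40, 6.06 and 6.59 with hypoxia and 7.32, 7.24 and 7.14 in the control. Combination array 1 lay below the control arrays and arrays 2 and 3 above them.

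**Figure D4:**
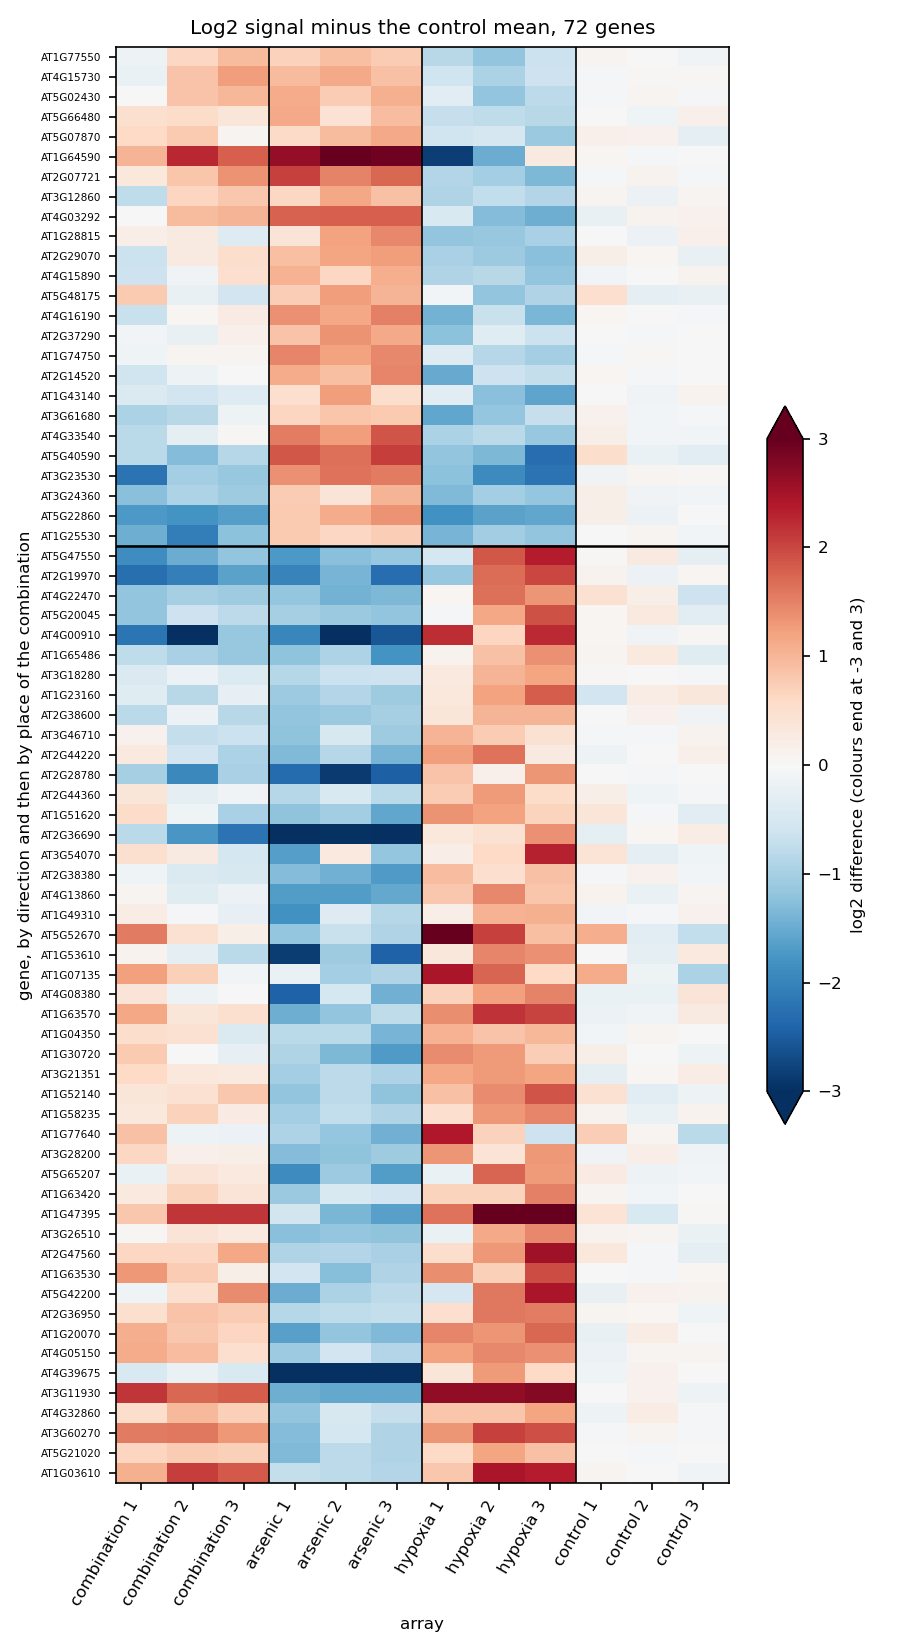
Log2 signal minus the control mean for the 72 genes (rows) on the 12 arrays (columns), with red above and blue below control and the colours ending at -3 and 3; the black line parts the 25 genes higher with arsenic (top) from the 47 lower with arsenic, and within each the rows run from combinations near arsenic to combinations near hypoxia. Hypoxia array 1 is pale or blue in the first rows below the line, where the combination is blue.

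Set against each single stress, the combination differed from arsenic in 47 of the 72 genes (12% of all genes) and from hypoxia in 31 (3.46% of all genes), again by adjusted p under 0.05. All 47 differences from arsenic ran towards hypoxia and all 31 from hypoxia ran towards arsenic. The arsenic and hypoxia arrays of these comparisons were also used in the choice, which placed their means at the extremes. The combination differed from arsenic and not hypoxia in 33 genes (11% of all genes), from hypoxia and not arsenic in 17 (2.48% of all genes), from both in 14 (0.985% of all genes) and from neither in 8 (85.5% of all genes). Without hypoxia array 1 and combination array 1, 43 of the 72 differed from arsenic (10.4% of all genes) and 43 from hypoxia (7.37% of all genes), of which 20 differed from both. The count against hypoxia fell to 9 without combination array 2, to 16 without combination array 3 and to 16 without hypoxia array 2, where the calls over all genes fell to 0.61%, 1.17% and 1.11%. Genes that differed from both included AT3G11930, AT4G13860 and AT2G38380. In AT2G38380 the combination read 9.94, 9.62 and 9.58, arsenic 8.76, 8.62 and 8.35, hypoxia 10.98, 10.56 and 10.95 and control 10.004, 10.20 and 9.99. Its combination stood apart from both stresses and 0.01 from their midpoint (95% interval -0.30 to 0.32).

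Against control, the combination differed in 23 of the 72 genes (31.9%, against 27.7% of all genes), a share near that of the whole array. In 14 of the 23 it lay on the hypoxia side of control and in 9 on the arsenic side (4388 and 4194 of the 4578 calls over all genes). In 46 of the 72 genes the combination mean lay within 0.7 of the control mean (13112 of all 16550 genes). In 16 it was at least 0.7 away on the hypoxia side and in 10 on the arsenic side (3312 and 3157 of all genes). The all-gene counts hold a gene on each side where its single-stress changes share a sign. Without hypoxia array 1 and combination array 1 the counts among the 72 were 40, 16 and 16, and 30 of the 72 differed from control (27.2% of all genes). AT3G11930 was 1.90 above control (SE 0.14, adjusted p = 1.44e-06), AT5G22860 was 1.73 below (SE 0.17, adjusted p = 9.08e-06) and AT4G00910 was 2.24 below (SE 0.59, adjusted p = 0.0124). AT2G36690 was 1.59 below (SE 0.38, adjusted p = 0.00727), with 8.37, 7.43 and 6.97 in the combination, 5.04, 6.21 and 5.53 with arsenic, 9.49, 9.63 and 10.55 with hypoxia and 8.90, 9.24 and 9.39 in the control. The count became 13 without combination array 2 (21.6% of all genes) and 14 without control array 1 (22.3% of all genes).

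Whether the single changes add up on the log2 scale was tested by the interaction, the change of the combination less the summed changes of the single stresses. It passed in 2 of the 72 genes (2.78%, against 2.76% of all genes). They were AT4G39675, at 3.20 (adjusted p = 0.00799), and AT5G22860, at -1.15 (adjusted p = 0.0219). Over the 72 genes the median change of the combination from control was 0.06, and the median of the summed single changes was 0.06. Those medians pool opposite directions, so their match does not show that the changes add up. In the genes higher with arsenic the medians were 0 for the combination and 0.148 for the sum. For the genes lower with arsenic they were 0.179 and -0.099. The interaction lay towards hypoxia in 46 of the 72 genes, a count that was not tested. In the other 70 genes the interaction did not pass, which does not show that the changes added up in each.

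The same limits took in 13 genes with a symbol, and their combination lay nearer hypoxia in 7 and nearer arsenic in 6, with a median share of 55%. CML38, a calmodulin-like protein of the low-oxygen response, read 6.68, 6.42 and 6.95 in the combination, 5.05, 3.03 and 3.096 with arsenic, 7.87, 8.22 and 7.91 with hypoxia and 7.55, 4.88 and 3.94 in the control. Control array 1 stood far above the other control arrays, and arsenic array 1 above the other arsenic arrays. YUC6, a flavin monooxygenase of auxin synthesis, averaged 5.89 in the combination, 4.41 with arsenic, 7.11 with hypoxia and 5.61 in the control. PR-1-LIKE, named for its likeness to a pathogenesis-related protein, averaged 1.86 in the combination, 1.71 with arsenic, 3.88 with hypoxia and 2.80 in the control, with hypoxia array 1 at 2.34, below all control arrays. LBD29, a transcription factor of lateral root formation, averaged 5.60 in the combination, 4.57 with arsenic, 7.21 with hypoxia and 5.51 in the control, and its combination arrays ran from 4.59 to 7.28. In the other direction, Cpn60beta4, a chaperonin subunit, averaged 6.49 in the combination, 7.54 with arsenic, 5.25 with hypoxia and 6.29 in the control. RAPTOR2, a partner of the TOR kinase, averaged 6.65 in the combination, 7.47 with arsenic, 5.59 with hypoxia and 6.60 in the control. CP5 and FDH (formate dehydrogenase) were the 2 of the 13 past the midpoint test, both towards hypoxia, at 1.00 (adjusted p = 0.00241) and -0.82 (adjusted p = 0.0246).

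The 72 genes were spread over all 5 chromosomes, as the locus codes give them, with 23 on chromosome 1, 13 on chromosome 2 and 12 on each of chromosomes 3, 4 and 5. Chromosome 1 thus held 31.9% of them and 26.2% of all locus-coded genes. A few lay close together in the order of the TAIR10.1 gene table. AT1G63530 and AT1G63570 had 3 genes between them and AT1G63420 lay 11 genes before AT1G63530, and all were lower with arsenic with shares of 72.8%, 60% and 69.9%. AT2G19970 and PR-1-LIKE had 1 gene between them and were both lower with arsenic and higher with hypoxia. The combination, arsenic and control means of PR-1-LIKE lay below the lowest first quartile of an array. AT1G77550 and AT1G77640 had 9 genes between them and opposite directions. Whether probes of neighbouring genes can bind each other's transcripts was not tested.

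Many of the genes sat near the limits of the choice. Just inside were AT1G25530, AT5G48175 and AT4G15730 among those higher with arsenic, whose smaller displacement was 0.713, 0.718 and 0.721. AT5G48175 had combination arrays at 8.57, 7.57 and 7.20 that straddled the control arrays at 8.29, 7.49 and 7.56, and AT4G15730 averaged 5.68 in the combination, 6.04 with arsenic, 4.33 with hypoxia and 5.05 in the control. Just inside among those lower with arsenic were AT3G18280, AT2G44360 and AT1G07135, at 0.706, 0.706 and 0.709. Just outside were AT5G57890, AT5G07810 and AT5G59540 in one direction, at 0.692, 0.689 and 0.685, and AT2G02700, AT5G65320 and AT3G18930 in the other, at 0.692, 0.681 and 0.676. AT5G59540 had an arsenic displacement of 2.88 and was left out by its hypoxia displacement alone.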

How the data were processed

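The authors deposited 1 log2 signal per probe set for each of 12 Affymetrix arrays. RMA is named in the submitters' processing notes, as are Transcriptome Analysis Console 3.1 and Expression Console in its versions 1.4 and 1.4.1. The genome build is not given in the sources used here, so no coordinates are given. The values were used as deposited. Of 38408 rows, 16722 named 1 gene; the highest-mean row per gene left 16550 genes, and each of the 72 genes described had 1 row. All matched the RefSeq gene table (TAIR10.1), used for names and gene order.

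A group-means model over the 12 arrays was fitted in limma 3.58.1 under R 4.3.3 (lmFit, contrasts.fit, eBayes) and tested two-sided, with Benjamini-Hochberg adjustment over all genes within a comparison and a threshold of 0.05. The steps were tested on simulated data. The genes, lists and limits were chosen with earlier results of these data known. Arsenic and hypoxia against control chose the genes and were not tested on them. Genes were named by rule: in each direction the 10 with the largest smaller displacement, up to 4 past the midpoint test each way, 3 just inside and 3 just outside the limits, and up to 6 symbol-bearing genes. Others (AT5G21020, AT3G24360, AT2G19970, AT4G22470, AT5G20045, AT1G03610, AT1G77550, AT1G77640, AT1G63420, AT1G63530, AT2G36690, AT2G38380, AT4G13860, CP5 and FDH) were added after their values were seen. Planned counts of description words and promoter motifs were not made, as no descriptions or sequences were used here. Replicate numbers were not taken as pairs, because the series text calls replicates independent. Even so, deviations of same-numbered arrays were more often correlated. They passed 0.1 in 6 of 18 pairs (median 0.066, highest 0.305), against 5 of 36 other pairs (median -0.048, highest 0.162). The main fit held no term for a shared replicate effect, and counts with a replicate block are given below.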

Additional observations from a re-analysis of the deposited data

Results flagged for a closer look

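The interaction, which tests whether the effect of arsenic differs between hypoxic and other medium, passed in 2 of the 72 genes, or 2.78%, against 2.76% of all genes. In AT4G39675 it was 3.197 (adjusted p = 0.00799), and it passed in 21 of 21 alternative settings, with values from 2.772 to 3.748. In AT5G22860 it was -1.145 (adjusted p = 0.0219), and it passed in 17 of 21, with values from -1.351 to -1.012 and a highest adjusted p of 0.0717. It failed without combination array 2, arsenic array 3, control array 2 or control array 3 (adjusted p = 0.059, 0.0637, 0.0717 and 0.0518). The combination and hypoxia arrays of AT5G22860 lay below the lowest first quartile of an array.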

How the results depend on the processing

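Limits of 0.5 and 1.0 in place of 0.7 gave 181 and 26 genes, 114 and 15 of them nearer hypoxia. Re-centring the arrays gave 72 (18 of them higher with arsenic) and repeating quantile normalization 71 (20 higher with arsenic), of which 61 each were among the 72. Re-centring moved the all-gene median of combination minus control to 0.199, against 0.09 as deposited. Leaving out 1 array at a time gave 65 to 94 genes, 38 to 55 nearer hypoxia and median shares of 51% to 64.8%.

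Of the 72 genes, those past each test numbered, over the omissions of 1 array, 5 to 17 (midpoint), 13 to 28 (control), 36 to 50 (arsenic), 9 to 37 (hypoxia) and 1 to 4 (interaction). Over all genes, they numbered 210 to 966, 3494 to 4831, 1065 to 2197, 101 to 1000 and 213 to 502. Fitting all rows gave 414 genes past the midpoint test, 325 against hypoxia and 244 for the interaction. Array weights gave 19 of the 72 past the midpoint test (13 towards hypoxia, 6 towards arsenic) and 38 against control. Over all genes they gave 1444 past the midpoint (8.73%), 6106 against control (36.9%), 3527 against arsenic and 886 for the interaction. A trended, robust variance gave 4 of the 72 past the interaction, and 539 of all genes (3.26%). Without hypoxia array 1 and combination array 1, an alternative chosen after seeing the data, 18 of the 72 passed the midpoint test, 30 against control, 43 against hypoxia and 4 the interaction. Over all genes, 810 then passed the midpoint test, 4506 differed from control, 1220 differed from hypoxia and 511 passed the interaction. With a replicate block, 13 of the 72 and 731 of all genes passed the midpoint test (12 of the 13 towards hypoxia and 1, AT4G00910, towards arsenic), 25 and 4690 against control, 52 and 2061 against arsenic, 34 and 592 against hypoxia, and 2 and 552 the interaction. The cause of these shifts was not tested. Over 588 repeats of the midpoint test for 28 named genes, 537 kept direction and side of the threshold, 19 changed sign with no call before or after, 18 lost the call, 14 gained it and 0 reversed a call. Part of this was fixed in advance. Omitting a control array, averaging or fitting all rows, leaving out low genes, a trended variance and a replicate block cannot change a gene's difference from the midpoint. In those settings direction could not change, so these counts overstate how far direction was tried. The number of arrays limits the precision.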
